A study of Mus musculus with 12 samples.

Results

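The genes for mitochondrial ribosomal proteins were taken as the rows of the deposited table whose symbol starts with Mrpl or Mrps followed by a number and at most 1 letter. The rule found 76 of the 23230 listed genes. By the known structure of the ribosome, 49 of them encode proteins of the large subunit and 26 proteins of the small subunit. The remaining gene, Mrps36, carries the name but encodes a component now assigned to the 2-oxoglutarate dehydrogenase complex. Of the ribosomal genes, 48 encode homologues of bacterial ribosomal proteins and 27 encode proteins found in mitochondria alone.

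Mitochondria have their own ribosome, which makes a small set of membrane proteins of the respiratory chain and ATP synthase from messengers of the mitochondrial genome. Its RNA comes from that genome, whereas all of its proteins are encoded in the nucleus, made in the cytoplasm and imported. The small subunit binds the messenger and reads codons, the large subunit joins amino acids, and a stalk on the large subunit recruits translation factors. The mouse oocyte stores large amounts of maternal mRNA while it grows, and clears many of these messengers when meiosis resumes.

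Oocytes were compared between wild-type (WT) females and Zar1/2-null females, in which both Zar1 and Zar2 (listed as Zar1l) were disrupted by CRISPR/Cas9 in the germline. ZAR1 and ZAR2 are oocyte proteins that bind maternal mRNA. All mice were C57BL6/ICR hybrids, and each of the 6 groups held 2 libraries of 10 oocytes prepared with Smart-seq2, which copies full-length polyadenylated RNA. Growing oocytes were labelled as 13.5 days old (the methods give another age). Fully grown germinal vesicle (GV) oocytes came from females labelled as 21 days old, 44 h after PMSG, and the ovulated oocytes, labelled MII, were collected 16 h after hCG. The study describes the ovulated Zar1/2-null oocytes as held in the first meiotic division, so genotype and meiotic stage cannot be told apart in that group. Nothing in the labels says that the 2 libraries of a group came from separate animals, so p-values measure the spread between these libraries.

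Values are FPKM, read fragments counted per length of transcript and per size of the library, that the authors multiplied by a factor from the ERCC spike-in, synthetic transcripts of known amount that each lysate received. An ERCC-scaled FPKM is thus meant as an amount per oocyte, and a lower value can come from fewer intact oocytes or from less RNA in each, which cannot be told apart in pooled cells. Since the factors of the MII libraries lay between 0.225 and 0.283 (WT growing oocytes: 1), every comparison below was also made without ERCC scaling. Both WT growing libraries had a factor of 1, although the study lists different ERCC percentages for them. Libraries of different replicate numbers may therefore not share a common scale. Read counts are not in the table. Because Smart-seq2 copies polyadenylated RNA, the words cleared, kept and left below describe measured levels. Whether a transcript was degraded was not tested. The most frequent ratio of low unscaled values between libraries put the depth of the 12 libraries between 0.914 and 1.24 times that of the first WT growing library, an estimate only, since 49.6% to 57.1% of the low genes lay within 0.02 log2 units of a ratio of 1 to 6 reads. Zar1l stood at 639 and 644 FPKM in the WT and at 17.5 and 13.2 FPKM in the Zar1/2-null growing libraries. Zar1, whose null allele is a short deletion, stood at 603 and 725 against 407 and 460 FPKM there, so its level does not check the label. All 11 oocyte markers examined had at least 1 FPKM in every group except Figla in WT MII oocytes. The 16 granulosa and cumulus markers summed to 30.02 to 34.2 FPKM in WT growing, 16.2 to 24.1 in Zar1/2-null growing, 17.7 to 20.7 in WT GV, 13.9 to 15.8 in Zar1/2-null GV, 5.31 to 5.65 in WT MII and 7.43 to 8.60 in Zar1/2-null MII oocytes. Cyp19a1 and Nr5a2 reached a group mean of 1 FPKM throughout, Amh and Ptx3 were listed at 0 or stayed under 1 FPKM, and a part of these cells in the results was not tested. Immune markers summed to at most 3.12 FPKM and oviduct markers to at most 1.32 FPKM in any library. Removing the ERCC scaling moved the median log2 difference of all tested genes between null and WT from -0.16 to 0.08 in growing oocytes, from -0.38 to -0.03 at GV and from 0.06 to -0.01 at MII, and moved that between WT MII and GV from -1.28 to -0.43.

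RefSeq holds a promoter of 300 bases for 67 of the 76 genes (build GRCm38.p6, from 250 bases before the transcript start). Promoters are shown because the genes were stored together at high level. The letters CCGGAA, the core bound by ETS factors such as GABPA, stood on either strand in 37 of the 67 promoters (55.2%), in 28.7% of the 8147 promoters of genes tested here and in 15.2% of all 27025 promoters. The palindromic NRF1 motif, on either strand, stood in 12 promoters (17.9%, against 11.0% of tested genes and 4.78% of all). The YY1 letters ATGGCG stood in 18 (26.9%, against 15.9% and 9.24%), and TATAAA in 4 (5.97%, against 7.70% and 14.2%). None of these motifs contains another, and a match is a description of letters, not a bound site. In the promoters below capitals mark the ETS letters or their reverse complement (Mrpl33, Mrps22) or the reverse complement of the NRF1 motif (Mrpl12). Mrpl33 belongs to the gene with the largest genotype difference, and Mrps22 and Mrpl12 to genes cleared in both genotypes.
Mrpl33, chr5:31613701-31614000, plus strand: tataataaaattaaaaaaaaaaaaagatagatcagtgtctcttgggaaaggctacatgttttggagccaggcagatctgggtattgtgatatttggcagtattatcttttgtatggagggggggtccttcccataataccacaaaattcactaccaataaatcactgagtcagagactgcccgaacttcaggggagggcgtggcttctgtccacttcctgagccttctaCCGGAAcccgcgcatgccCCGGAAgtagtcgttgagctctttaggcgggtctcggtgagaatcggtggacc
Mrps22, chr9:98601630-98601929, minus strand: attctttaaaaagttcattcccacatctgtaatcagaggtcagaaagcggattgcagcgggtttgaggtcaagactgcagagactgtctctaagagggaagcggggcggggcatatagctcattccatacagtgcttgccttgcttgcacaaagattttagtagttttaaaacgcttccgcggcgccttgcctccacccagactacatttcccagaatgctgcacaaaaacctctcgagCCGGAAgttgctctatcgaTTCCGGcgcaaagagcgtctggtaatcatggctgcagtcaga
Mrpl12, chr11:120484387-120484686, plus strand: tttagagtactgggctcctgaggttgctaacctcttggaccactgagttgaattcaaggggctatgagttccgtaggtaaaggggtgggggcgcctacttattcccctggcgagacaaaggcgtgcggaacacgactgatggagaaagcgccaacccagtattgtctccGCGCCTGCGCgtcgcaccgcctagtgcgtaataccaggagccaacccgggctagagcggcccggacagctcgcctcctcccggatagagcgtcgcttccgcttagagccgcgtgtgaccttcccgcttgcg

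The 76 genes were expressed well above the typical gene of these oocytes. Their median level was 64.2 FPKM for growing and 58.9 FPKM for GV oocytes of WT females, where the median of the 11502 tested genes was 8.74 and 6.87 FPKM. A gene was tested if any library gave it 1 FPKM or more, which all 76 passed. In WT GV oocytes 23 of the genes had at least 100 FPKM and 1 had less than 1 FPKM.

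Among single genes in WT GV oocytes, Mrps33, a small-subunit protein without a bacterial counterpart, had the highest level (576 and 479 FPKM). Mrpl48, a large-subunit protein, followed (538 and 469 FPKM), and its range overlapped that of Mrps33. Mrps36 came next (431 and 365 FPKM), with both libraries below those of Mrpl48. After it followed Mrpl32, a bacterial homologue in the large subunit (393 and 300 FPKM), and Mrps22, a small-subunit protein specific to mitochondria (342 and 254 FPKM), and their ranges overlapped. At the other end, Mrps34, also a small-subunit protein specific to mitochondria, had 0.212 and 0.590 FPKM. Mrpl19 had 2.54 and 2.71 FPKM and Mrpl15 had 7.69 and 7.5 FPKM, so the lowest 3 genes did not overlap. The Mrpl48 exons overlap those of D630004N19Rik on the same strand, those of Mrps34 overlap Mapk8ip3 and those of Mrpl19 overlap AW146020 on the opposite strand, and reads without strand cannot be divided between such pairs. The heat map of all 76 genes shows that the 4 MII libraries stood apart from the other 8. In WT growing oocytes Mrpl48 had the highest and Mrpl19 the lowest mean.

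**Figure D1:**
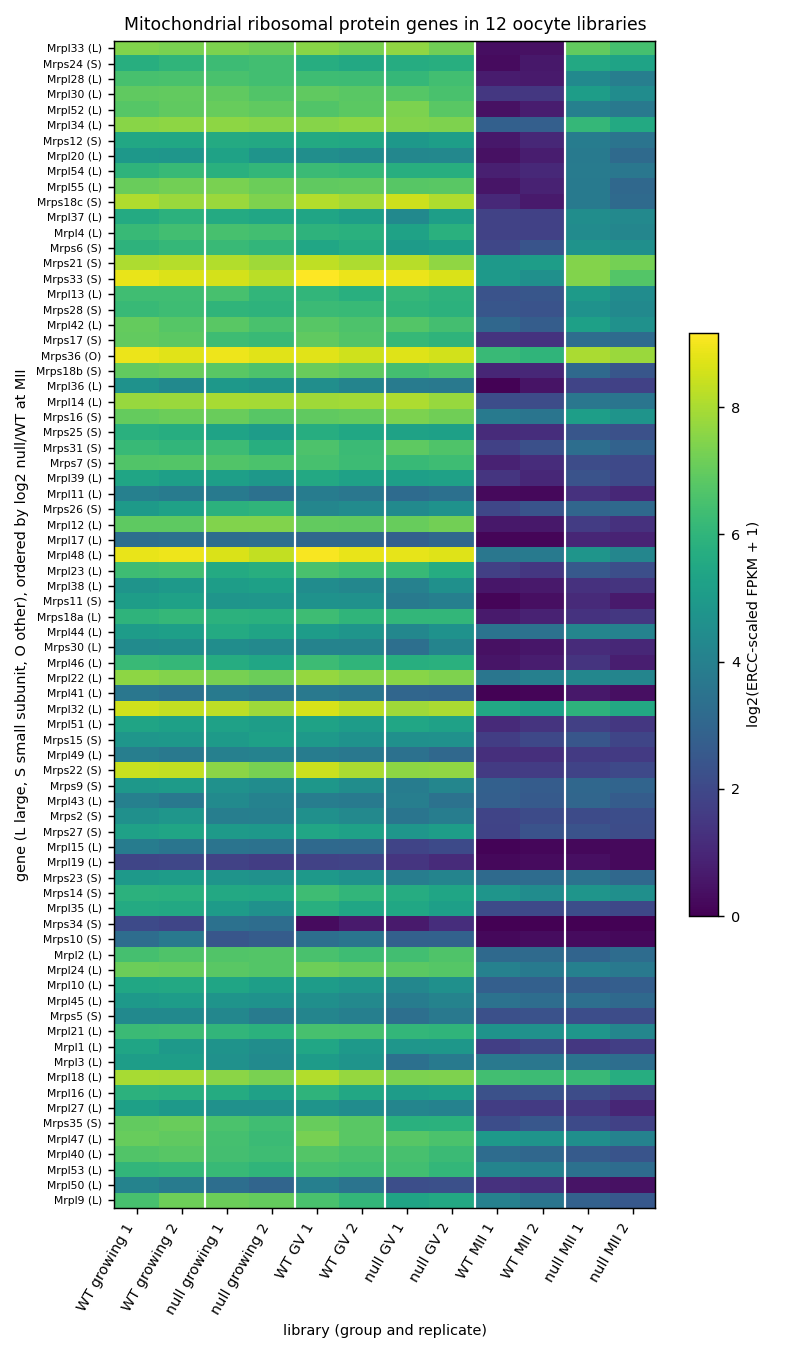
Level of the 76 genes (rows, ordered by their log2 difference between Zar1/2-null and WT at MII) in the 12 libraries (columns), in colour as log2(ERCC-scaled FPKM + 1). The WT MII columns are the darkest, and the upper rows are brighter in the Zar1/2-null MII columns.

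The 76 genes summed to 7344 and 7321 FPKM in the WT growing libraries and to 7675 and 6644 FPKM in the WT GV ones. Their sum was 588 and 549 FPKM in WT MII oocytes. For the null libraries the sums were 6832 and 5978 FPKM in growing oocytes, 6365 and 5886 FPKM at GV and 1646 and 1271 FPKM at MII. The sums thus fell at MII in both genotypes and were higher in the Zar1/2-null MII libraries than in the WT ones. At MII the same held for a measure no scaling factor touches, the share of the 76 genes in the summed FPKM of each library. This share was 1.15% and 1.16% in WT growing, 1.33% and 1.38% in WT GV and 0.458% and 0.453% in WT MII oocytes. For the null libraries the shares were 1.2% and 1.19%, then 1.58% and 1.39%, and at MII 0.784% and 0.721%. In growing and in GV oocytes the null sums lay below the WT sums, whereas the null shares lay above the WT shares. With 2 libraries against 2 an exact permutation test cannot give a p below 0.333, so these sums were not tested.

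**Figure D2:**
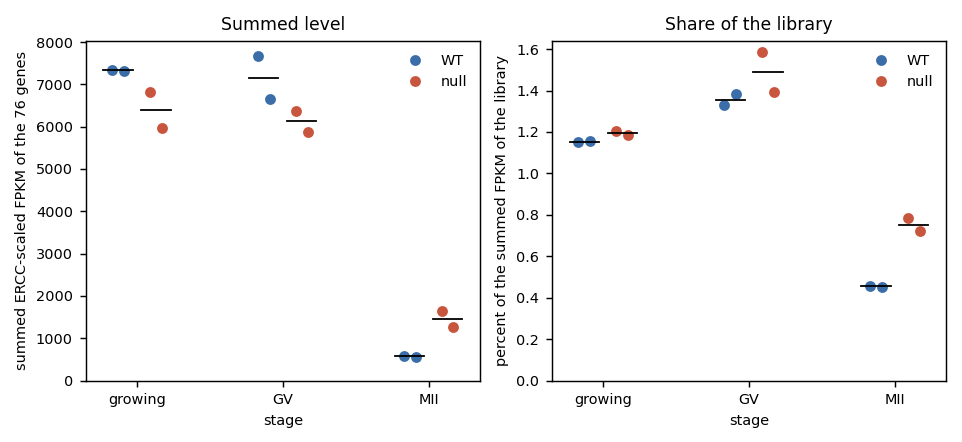
Left, summed ERCC-scaled FPKM of the 76 genes; right, their percent of the summed FPKM of the library, by stage. Points are libraries and lines are group means of 2. At MII the Zar1/2-null libraries (0.721% and 0.784%) lie above the WT libraries (0.453% and 0.458%).

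Few of the genes changed while WT oocytes grew. From growing to GV oocytes 0 genes rose and 6 fell by limma at an adjusted p under 0.05, where 2.77% of all tested genes rose and 28.7% fell, and 1 gene (Mrpl53) was higher at an unadjusted p under 0.05. Leaving out either WT growing library or the second WT GV library gave fewer falls, among the 76 and among all tested genes. Over the 76 genes the median log2 difference was -0.10, and -0.29 over all tested genes. The libraries did not overlap for 8 genes that were higher and 25 that were lower at GV, against 10.2% and 59.5% of all tested genes. Without ERCC scaling 3 rose (Mrpl21, Mrpl53 and Mrps14) and 1 fell, where 3.66% of all genes rose and 3.23% fell, and the median turned to 0.29.

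Mrps34 was the 1 gene that fell under every scaling tried, from 3.21 and 2.76 to 0.212 and 0.590 FPKM (log2 difference -1.52 ± 0.18 SE, limma adjusted p = 5.86e-04). Mrps26, another mitochondria-specific protein of the small subunit, had 30.6 and 37.0 FPKM in growing and 17.7 and 20.6 FPKM in GV oocytes (-0.79 ± 0.18, limma adjusted p = 0.0101). Both falls left no overlap between the stages. The other 4 genes were Mrpl15 (-0.61), the stalk base protein Mrpl10 (-0.56), Mrpl45, a protein of the large subunit near the exit tunnel (-0.56), and Mrps11 (-0.52), and these falls as well as that of Mrps26 missed the threshold without ERCC scaling.

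In growing oocytes the knockout was accompanied by 4 higher and 12 lower genes of the 76, where limma called 10.6% of all tested genes higher and 24.4% lower. Both counts fell when any growing library was left out, for the 76 genes and for all tested genes. Both shares of the members (5.26% and 15.8%) were below those of all genes. Their median log2 difference was -0.22, against -0.16 over all tested genes, and without ERCC scaling the count was 8 higher and 4 lower (14.9% and 12.3% of all genes) and the median 0.05. WT and null libraries did not overlap for 13 genes that were higher in null and 42 that were lower, against 22.4% and 47.4% of all tested genes.

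The 4 higher genes held under every scaling tried. Mrps34 stood at 3.21 and 2.76 FPKM in WT and at 9.72 and 8.72 FPKM in Zar1/2-null growing oocytes, a log2 difference of 1.36 ± 0.18 (limma adjusted p = 2.54e-04), and it was the 1 member past 3-fold higher (0.982% of all genes), while 0 were past 3-fold lower (3.54% of all genes). Mrps26 stood at 30.6 and 37.0 FPKM in WT and at 58.5 and 62.5 FPKM in null (0.82 ± 0.18, limma adjusted p = 0.00506). Both are small-subunit genes and both were also among the genes that fell during WT growth. The stalk protein Mrpl12 had 119 and 119 FPKM in WT and 171 and 173 FPKM in null (0.53 ± 0.15, limma adjusted p = 0.0172). Mrps24, a small-subunit homologue of a bacterial protein, had 52.6 and 62.7 FPKM in WT and 77.1 and 82.1 FPKM in null (0.46 ± 0.16, limma adjusted p = 0.0439). In each of the 4 genes both null libraries were above both WT libraries. Exons of Mrps26 and Mrpl12 overlap long non-coding RNAs on the opposite strand.

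Among the 12 lower genes, Mrps10, a bacterial homologue in the small subunit, had 8.65 and 12 FPKM in WT and 4.47 and 5.43 FPKM in Zar1/2-null growing oocytes (-0.92 ± 0.16, limma adjusted p = 0.00154). Mrps22 fell from 333 and 318 to 190 and 157 FPKM (-0.91 ± 0.17, limma adjusted p = 0.00193). Mrpl50 fell from 16.1 and 13.1 to 8.94 and 6.93 FPKM (-0.81 ± 0.18, limma adjusted p = 0.00478). These genes and Mrps2, a bacterial homologue at the messenger exit of the small subunit (-0.77 ± 0.16, limma adjusted p = 0.00413), stayed lower under every scaling tried. The fall of Mrpl35 (-0.73 ± 0.18, limma adjusted p = 0.0107) did not, with an adjusted p of 0.0606 without ERCC scaling.

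In fully grown GV oocytes 25 of the 76 genes were lower and 0 higher in Zar1/2-null oocytes, where 40.6% of all tested genes were lower and 2.83% higher by limma. 1 gene (Mrps34) was higher at an unadjusted p under 0.05. Leaving out the first WT GV or the first Zar1/2-null GV library gave fewer lower genes, among the 76 and among all tested genes. The median log2 difference was -0.34 over the 76 genes and -0.38 over all genes. Without ERCC scaling 9 genes were higher and 4 lower, with a median of 0.10, where 7.19% of all genes were higher and 13.5% lower. With median scaling 15 were higher and 4 lower, against 9.67% and 11.4% of all genes. The libraries did not overlap for 49 lower and 4 higher genes, against 63.6% and 6.79% of all tested genes.

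Under every scaling tried 4 genes stayed lower. Mrpl50, a large-subunit protein specific to mitochondria, had 14.7 and 10.7 FPKM in WT GV oocytes and 3.61 and 3.77 FPKM in Zar1/2-null GV oocytes (-1.53 ± 0.18, limma adjusted p = 9.54e-05), and was the 1 member past 3-fold lower (4.20% of all genes). Mrpl3, a core protein near the peptidyl transferase centre of the large subunit, had 32.1 and 26.0 FPKM in WT and 9.33 and 12.8 FPKM in null (-1.32 ± 0.17, limma adjusted p = 2.34e-04). Mrps35, of the small subunit, had 131 and 112 FPKM in WT and 55.7 and 56.4 FPKM in null (-1.10 ± 0.17, limma adjusted p = 5.53e-04). Mrpl15, a bacterial homologue in the large subunit, was the remaining gene, with 7.69 and 7.5 FPKM in WT and 2.64 and 3.13 FPKM in null. In these genes the WT and null libraries did not overlap. Mrpl9, with a log2 difference of -0.87, and Mrps11, with -0.80, fell as deposited but missed the threshold without ERCC scaling (limma adjusted p = 0.193 and 0.325).

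**Figure D3:**
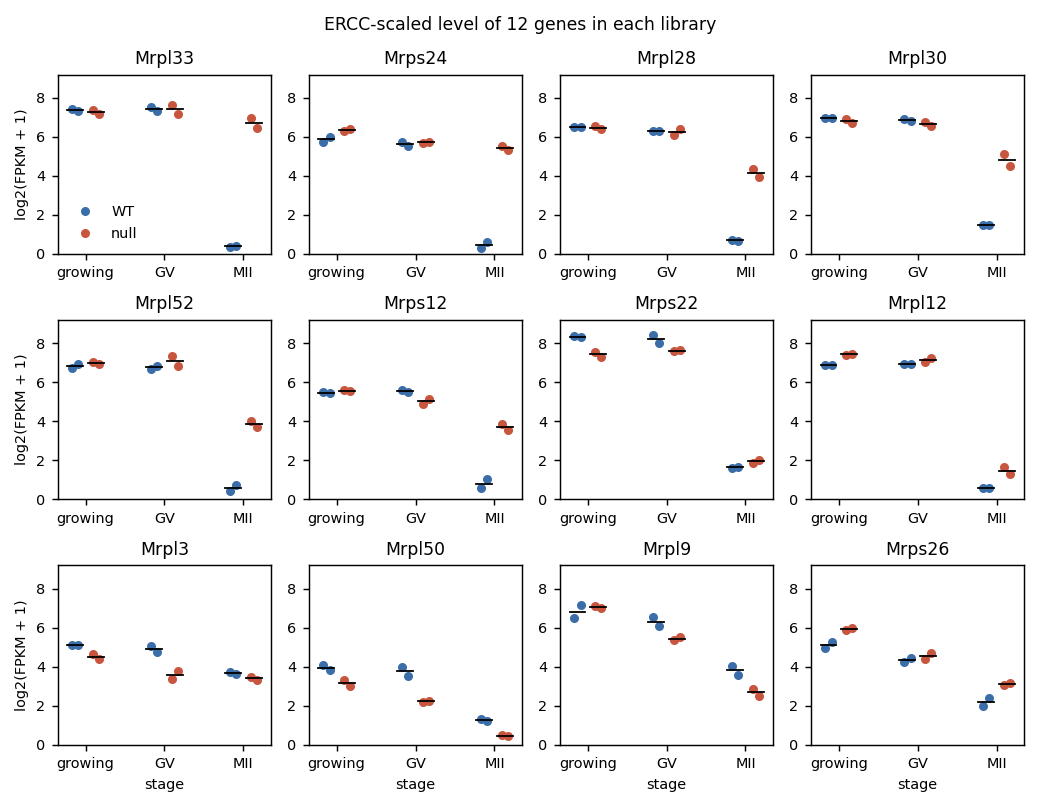
Level of 12 genes by stage on a log2(ERCC-scaled FPKM + 1) axis, with 1 point per library and lines at the mean of 2. Mrpl33 and Mrps24 differ between genotypes most at MII, Mrpl3 and Mrpl50 at GV, and Mrps26 in growing and MII oocytes.

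From GV to MII all 76 genes fell in WT oocytes, where 93.4% of all tested genes fell and 0.104% rose by limma. Every WT MII library was below every WT GV library for each of the 76 genes, as for 97.1% of all genes. The median log2 difference was -3.51 over the 76 genes and -1.28 over all tested genes. Without ERCC scaling the medians were -2.25 and -0.43, 66 genes fell and 2 rose (Mrpl3 and Mrpl45), where 47.6% of all genes fell and 19.7% rose. With median scaling 60 fell and 7 rose, against 40.8% and 29.5% of all genes. The study's rule for degraded transcripts, a fall of more than 10-fold, took 50 of the 76 genes in WT oocytes (15.7% of all genes) and 25 in Zar1/2-null oocytes (6.66% of all genes). Without ERCC scaling it took 29 and 8, counts that cannot be set against all genes, since no such share is given here.

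The lowest remainders were near the limit of the table. Mrps18c, a small-subunit paralog of a bacterial protein, fell from 278 and 241 to 1.10 and 0.581 FPKM (-7.16 ± 0.24, limma adjusted p = 3.68e-10). Mrpl33, a very short protein of the large subunit, fell from 183 and 159 to 0.251 and 0.331 FPKM (-7.05 ± 0.20, limma adjusted p = 1.46e-10). Mrps22 fell from 342 and 254 to 2.04 and 2.12 FPKM (-6.59 ± 0.17, limma adjusted p = 8.92e-11). These are falls of genes that were abundant at GV. Mrpl12, the stalk protein, went from 124 and 120 to 0.50 and 0.488 FPKM, and Mrpl55 from 121 and 124 to 0.418 and 0.842 FPKM. The added 1 FPKM makes each log2 difference of a gene that ended under 1 FPKM smaller than its true size.

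At the other end, Mrpl45 kept 44.6% of its WT GV level, Mrpl43 kept 42.1% and Mrpl3 kept 40.5%. Mrpl45 stood at 22.6 and 19.1 FPKM at GV and at 9.89 and 8.72 FPKM at MII. The median remainder was 5.39% over the 76 genes in WT oocytes and 14.0% in Zar1/2-null oocytes, and 18.2% and 29.2% without ERCC scaling. Exons of Mrpl43 overlap Peo1 on the opposite strand.

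In ovulated oocytes the knockout came with 39 higher and 4 lower genes of the 76, where limma called 21.5% of all tested genes higher and 10.3% lower. The share of the members that was higher (51.3%) exceeded that of all genes. The median log2 difference was 0.63, against 0.06 over all genes. All 39 kept their call without ERCC scaling, with median scaling and with averaged ERCC factors. Without ERCC scaling the count was 41 higher and 12 lower, where 24.6% of all genes were higher and 23.4% lower. The libraries did not overlap for 50 genes that were higher and 12 that were lower in null, against 43.5% and 27.8% of all tested genes. More than 3-fold higher were 25 of the 76 genes (7.49% of all genes), and 0 were more than 3-fold lower (1.32% of all genes).

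The largest difference was that of Mrpl33. Its level was 0.251 and 0.331 FPKM in WT MII oocytes and 124 and 87.9 FPKM in Zar1/2-null MII oocytes, at least 106-fold higher with the WT mean set to 1 FPKM (log2 difference 6.35 ± 0.20, limma adjusted p = 1.63e-09). It had not differed at GV, where WT had 183 and 159 FPKM and null 200 and 144 FPKM (log2 difference -0.01, limma adjusted p = 0.983). Mrps24 had 0.218 and 0.496 FPKM in WT and 45.2 and 39.3 FPKM in null, at least 42.3-fold higher (5.0 ± 0.16, limma adjusted p = 1.63e-09). In null MII oocytes 61.6% of the GV level was left for Mrpl33 and 81.7% for Mrps24, against 0.170% and 0.735% in WT. For both genes the null MII libraries still lay below the null GV libraries.

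Mrpl28 and Mrpl30, both bacterial homologues in the large subunit, came next. Mrpl28 had 0.610 and 0.584 FPKM in WT and 19.5 and 14.3 FPKM in null, at least 16.9-fold higher (3.47 ± 0.17, limma adjusted p = 3.09e-08). Mrpl30 had 1.80 and 1.78 FPKM in WT and 33.1 and 21.3 FPKM in null, 15.2-fold higher (3.30 ± 0.19, limma adjusted p = 1.66e-07). Mrpl52, a mitochondria-specific protein of the large subunit, had 0.316 and 0.666 FPKM in WT and 14.9 and 12.2 FPKM in null, at least 13.6-fold higher (3.29 ± 0.20, limma adjusted p = 2.30e-07). In these genes the level fell in null as well, with 22.6%, 27.2% and 9.76% of the GV level left. None of the 5 genes overlaps an exon of another gene in the mm9 annotation. Mrpl33 lies on chr5:31916312-31925017 (plus strand, 4 exons), Mrps24 on chr11:5603986-5607690 (minus strand, 4 exons), Mrpl28 on chr17:26260465-26263558 (plus strand, 5 exons), Mrpl30 on chr1:37947322-37955380 (plus strand, 6 exons) and Mrpl52 on chr14:55045746-55048587 (plus strand, 5 exons).

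The 4 genes that were lower in Zar1/2-null MII oocytes all encode proteins of the large subunit. Mrpl9, a bacterial homologue, had 15.4 and 10.9 FPKM in WT and 6.14 and 4.72 FPKM in null (-1.13 ± 0.25, limma adjusted p = 0.00423). Mrpl53, specific to mitochondria, had 16.8 and 15 FPKM in WT and 9.85 and 8.37 FPKM in null (-0.74 ± 0.16, limma adjusted p = 0.00377). Mrpl50 (-0.79) and Mrpl40 (-0.65) were the others. Mrpl50 was the 1 gene of the 76 that was lower at all 3 stages. Leaving out the first WT MII library gave fewer lower genes, among the 76 and among all tested genes. The exons of Mrpl53 overlap Ccdc142 on the same strand.

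The change from GV to MII differed between the genotypes for 52 of the 76 genes, all of which fell less in Zar1/2-null oocytes, where limma found a smaller fall for 33.9% of all tested genes and a larger one for 0.643%. 1 gene (Mrpl53) fell more in null at an unadjusted p under 0.05. The median difference of the log2 change was 0.93 over the 76 genes and 0.48 over all. Without ERCC scaling 32 genes fell less and 5 fell more in null (Mrpl2, Mrpl40, Mrpl47, Mrpl53 and Mrpl9), where 15.15% and 6.46% of all genes did so, with a median of 0.45. Mrpl33 (6.36 ± 0.29, limma adjusted p = 5.96e-08), Mrps24 (4.91 ± 0.23, limma adjusted p = 6.67e-08), Mrpl28 (3.53), Mrpl30 (3.52) and Mrps12 (3.43) had the largest differences. Mrps12, a decoding-centre protein, had 0.502 and 1.01 FPKM in WT MII oocytes and 13.5 and 10.6 FPKM in null.

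**Figure D4:**
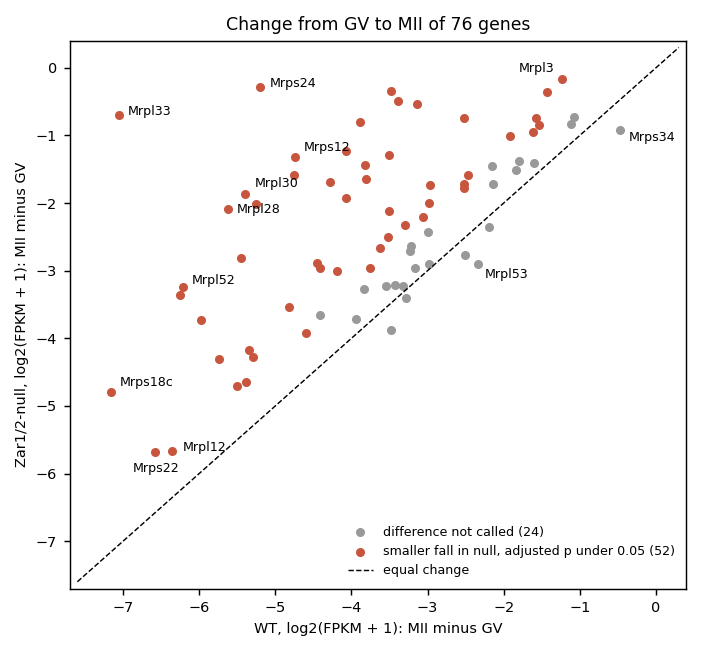
Change from GV to MII of each of the 76 genes on the log2(FPKM + 1) scale, in WT (horizontal axis) and Zar1/2-null oocytes (vertical axis). Red points are the 52 genes whose fall was smaller in null by limma. Mrpl33 and Mrps24 lie farthest above the line of equal change, and Mrps22 and Mrpl12 fell by more than 5 log2 units in both genotypes.

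Mrps22 and Mrpl12 were cleared in both genotypes. In Zar1/2-null MII oocytes Mrps22 had 2.62 and 3.04 FPKM, which was 1.44% of its null GV level, and Mrpl12 had 2.08 and 1.46 FPKM, 1.27% of its null GV level. Their differences between genotypes in the GV to MII change were 0.90 and 0.70 (limma adjusted p = 0.0148 and 0.0246), and without ERCC scaling they were 0.32 and 0.61 (limma adjusted p = 0.296 and 0.0515). Mrps22 lies on chr9:98489152-98502098 (minus strand, 8 exons) and Mrpl12 on chr11:120345927-120350379 (plus strand, 5 exons) of mm9.

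Between stages 8 of the 76 genes (10.5%) were called in opposite directions, against 6.05% of all tested genes. At GV lower and at MII higher in null were Mrpl11, Mrpl36, Mrpl54, Mrps11, Mrps12 and Mrps17. Mrps17 showed it at each stage, with 124 and 115 FPKM in WT and 78.3 and 73.0 FPKM in null growing oocytes, and 122 and 102 FPKM in WT against 70.2 and 61.0 FPKM in null GV oocytes. At MII it had 1.63 and 1.52 FPKM in WT and 8.77 and 8.24 FPKM in null (1.88 ± 0.15, limma adjusted p = 1.66e-06). At none of these stages did WT and null libraries overlap. Mrpl23 and Mrps25 were lower in null growing oocytes and higher in null MII oocytes. Mrpl54, which is specific to mitochondria, had 0.743 and 1.09 FPKM in WT and 13.1 and 11.6 FPKM in null MII oocytes. Without ERCC scaling none of the 8 genes passed the threshold as lower before MII.

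By subunit, 23 of the 49 large-subunit genes were higher and 4 lower in Zar1/2-null MII oocytes, and 15 of the 26 small-subunit genes were higher and 0 lower, against 21.5% higher and 10.3% lower over all tested genes. The median log2 difference was 0.44 for the large and 0.98 for the small subunit. By origin, 26 of the 48 bacterial homologues were higher and 1 lower, and 12 of the 27 mitochondria-specific genes were higher and 3 lower (11.1%, near the share of all genes). No difference between these classes was tested. Values differed within a working part of the ribosome. At the stalk, Mrpl12 was higher in null MII oocytes (0.88), Mrpl10 had -0.10 (limma adjusted p = 0.752) and Mrpl11, at its base, was higher (0.94), while Mrpl1 of the stalk on the other side had -0.23 (limma adjusted p = 0.451). In the small subunit Mrps12 rose by 2.90 on the log2 scale and Mrps7, which holds the head of the subunit, by 1.04, whereas Mrps5 had -0.13 (limma adjusted p = 0.670) and Mrps2 had 0.16 (limma adjusted p = 0.545). Mrpl44, a large-subunit protein with a ribonuclease fold, had 10.3 and 10.1 FPKM in WT and 17 and 15.8 FPKM in null (0.63, limma adjusted p = 0.0174). Exons of Mrpl10, Mrpl44, Mrps7, Mrps11, Mrps25 and Mrps18b also overlap those of another gene, so reads there cannot be assigned without strand.

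The 3 Mrps18 paralogs are separate genes for homologues of 1 bacterial protein, of which Mrps18a is a large-subunit protein. In WT GV oocytes Mrps18c had 278 and 241 FPKM, Mrps18b had 132 and 118 FPKM and Mrps18a had 78.2 and 63.4 FPKM, an order without overlap. All of them fell to about 1 FPKM or less in WT MII oocytes. In Zar1/2-null MII oocytes Mrps18c had 12.9 and 8.10 FPKM (at least 10.5-fold higher), Mrps18b had 7.76 and 4.45 FPKM (6.04-fold higher) and Mrps18a had 1.54 and 1.79 FPKM (at least 1.66-fold higher). The 3 paralogs were higher in null by limma (adjusted p = 7.21e-06, 4.32e-05 and 0.00699).

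The transcripts of the 76 genes are short. Their median length was 1117.5 nucleotides in the mm9 annotation, against 2675 nucleotides over the 10765 tested genes with a coding transcript of the same symbol. The 39 genes that were higher in Zar1/2-null MII oocytes had a median of 969 nucleotides, the 33 without a call 1332 nucleotides and the 4 lower ones 1398.5 nucleotides. Across the 76 genes transcript length and the log2 difference at MII had a Spearman correlation of -0.43, and across the tested genes of -0.36. Genes are not independent replicates, and both measures of a gene share its gene model and its level in the libraries, so the correlation is a description.

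The ends of some transcripts are shown because the cytoplasmic polyadenylation element (CPE), which CPEB binds in maturing oocytes, lies there near the poly(A) signal. These motifs were chosen after the values had been seen. The letters TTTTAT or TTTTAAT (which do not contain each other) stood in the last 100 bases of 10 of the 66 members whose 3' UTR is at least that long (15.2%), against 20.4% of the 9921 tested genes with such an end. They stood in 3 of 34 genes higher in null at MII, in 5 of 28 without a call and in 2 of the 4 lower ones. The members with these letters kept a median of 12.4% of their WT GV level and ranged from 0.807% (Mrps18b) to 40.5% (Mrpl3). The 56 members without them kept a median of 4.63% and up to 44.6%. In null oocytes the order was the reverse, with medians of 17.6% with and 19.8% without these letters. Below, Mrpl3, Mrpl44 and Mrps14, the members with these letters that kept most in WT, stand above Mrpl33, Mrps24 and Mrps21. As a percent of their own GV level, null oocytes kept more than WT oocytes of the upper and lower genes alike. For the upper genes the null and WT values were 87.2% and 40.5% (Mrpl3), 76.4% and 34.6% (Mrpl44) and 54.6% and 33.6% (Mrps14). That GV level was lower in null for Mrpl3 and Mrps14, and neither gene was called at MII. Without ERCC scaling Mrpl3 was lower in null at MII (log2 difference -0.52, limma adjusted p = 0.00873). The genotype difference of the change then missed the threshold for Mrpl3 and Mrpl44 (limma adjusted p = 0.177 and 0.125). Capitals mark the CPE letters and the poly(A) signal AATAAA or ATTAAA, in windows of 30 bases of mm9.
Mrpl3, chr9:104979761-104979790, plus strand: TTTTATaaacTTTTATTAAAgatttatctc
Mrpl44, chr1:79777924-79777953, plus strand: cagctagatgtaTTTTATtccctccagctt
Mrps14, chr1:162132202-162132231, plus strand: tcccaggtTTTTATgttctatgcatctact
Mrpl33, chr5:31924979-31925008, plus strand: tttataggccttAATAAAaaaatatcaaaa
Mrps24, chr11:5603986-5604015, minus strand: gcttttgtaaatgaATTAAAcattcaacag
Mrps21, chr3:95666581-95666610, minus strand: acttttctctatAATAAAaactccatcaca

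The lower 3 genes have no CPE letters in the last 100 bases either. These 6 genes were chosen after their values had been seen. Mrps14, a bacterial homologue in the small subunit, had 78.1 and 64.1 FPKM in WT GV oocytes and 26.7 and 21.1 FPKM in WT MII oocytes, with 26.8 and 22.6 FPKM in null MII oocytes. Mrps21, also of the small subunit, had 311 and 263 FPKM in WT GV oocytes, 30 and 33.1 FPKM in WT MII oocytes and 177 and 151 FPKM in null MII oocytes. No match says only that these letters are not in the window.

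Genes that work with the mitochondrial ribosome were also examined at MII, where 21.5% of all tested genes were higher and 10.3% lower. Of 7 further ribosomal proteins with other names, 5 were higher in Zar1/2-null MII oocytes and 1 lower. Chchd1 had the largest difference (4.19), with a mean of 2.02 FPKM in WT and 55.1 FPKM in null, followed by Aurkaip1 (2.43), Mrp63 (2.18), Ict1, the peptidyl-tRNA hydrolase of the ribosome (1.23), and Gadd45gip1 (1.12), and the lower gene was Ptcd3 (-0.98). Of 18 tested assembly factors 2 were higher and 4 lower. The higher ones were Mpv17l2 (1.92) and Gtpbp5 (0.69). Gtpbp5 was under 1 FPKM in both groups, with means of 0.0379 FPKM in WT and 0.674 FPKM in null. The lower ones were the pseudouridine synthase Rpusd4 (-1.80), Mterfd1 (-1.05), the GTPase Gtpbp10 (-1.04) and Fastkd2 (-0.85). Of 11 translation factors, such as the elongation factors Tufm and Gfm1, 0 were called in either direction by limma, and 1 (Gfm2) had an unadjusted p under 0.05. Of 13 genes for transcription and RNA of the mitochondrial genome, 2 were higher, Hsd17b10 (1.67) and the helicase Supv3l1 (0.59), and 2 lower, Rg9mtd1 (-0.97) and the transcription factor Tfb2m (-0.50). Supv3l1 and Tfb2m lay near the threshold (limma adjusted p = 0.0380 and 0.0393), and these lists were not examined without ERCC scaling. Differences between the lists were not tested.

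Cytoplasmic ribosomal proteins and respiratory complex I served for comparison. Of 83 tested cytoplasmic ribosomal protein genes 74 were higher and 1 lower in Zar1/2-null MII oocytes, with a median log2 difference of 2.31. Of 36 genes for subunits of respiratory complex I, an enzyme that holds products of the mitochondrial ribosome, 34 were higher and 0 lower, with a median of 3.18. The median of the 76 mitochondrial ribosomal protein genes, 0.63, lay between these and that of all tested genes. At GV the medians were -0.15 for the cytoplasmic ribosomal proteins, -0.22 for complex I and -0.34 for the mitochondrial ribosomal proteins.

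**Figure D5:**
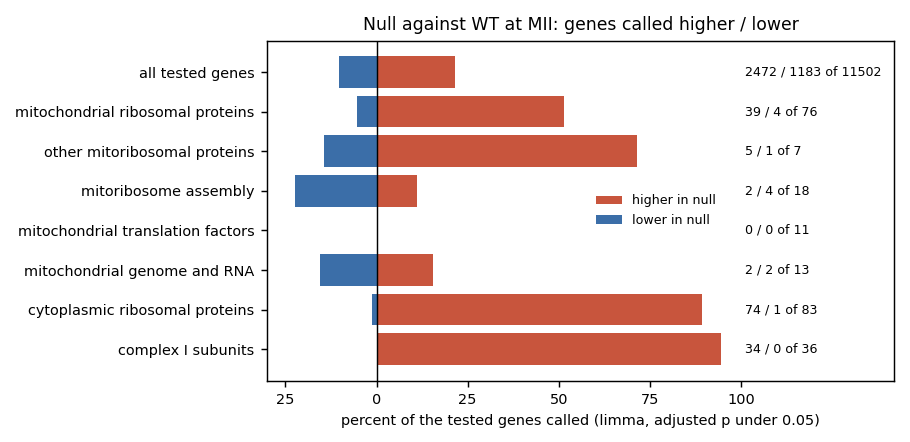
Percent of the tested genes of each list that limma called higher (right of 0) or lower (left of 0) in Zar1/2-null than in WT MII oocytes, with counts at the right. The mitochondrial ribosomal proteins (39 higher and 4 lower of 76) lie between all tested genes and the cytoplasmic ribosomal and complex I genes.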

How the data were processed

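Gene expression was measured in 12 libraries, 2 for each of WT and Zar1/2-null growing, GV and MII oocytes, grouped by the GEO labels. The deposited values are FPKM per gene, which the authors computed with TopHat2 (2.1.1) and Cufflinks (2.2.1) from uniquely mapped reads on mm9 and scaled by the ERCC spike-in. The factor of each library was recovered from the digits of the deposited values, which allowed the scaling to be removed. Read counts, and so counting errors, could not be had from the table.

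A gene was kept where any library gave it 1 FPKM or more (11502 of 23230). Differences were tested with limma (3.58.1, R 4.3.3) on log2(FPKM + 1), with a term for each of the 6 groups over all 12 libraries, an intensity trend and Benjamini-Hochberg adjustment over all kept genes at 0.05. The pseudocount of 1 FPKM understates the change of low genes. In folds a mean under 1 FPKM was set to 1, so such folds are lower bounds. On simulated data for the MII comparison (11502 genes), 98.5% of 200 changed genes were recovered and 8 unchanged genes were called. All changed genes were given the same large change and had a mean of at least 5 FPKM. The recovery of smaller changes, or of changes in lower genes, was thus not examined.

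Genes were named by rule: for each comparison up to 5 with the largest called difference in each direction, with a mean of 10 FPKM or more where it was higher and no overlap of libraries (the overlap was not asked of the difference between the GV to MII changes). The 5 highest and 3 lowest genes of WT GV oocytes, the Mrps18 paralogs, stalk proteins, proteins with known roles in decoding, assembly or disease, and genes called in opposite directions were added. Other genes were named after their values had been seen. The genes and lists were chosen with earlier results of these data known. Transcript ends, lengths and exons came from the GENCODE annotation of mm9, and promoters from RefSeq. Alternatives were other scalings, pseudocounts, filters, a replicate block, a fit without a trend, the libraries of a stage alone and leaving out each library.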

Additional observations from a re-analysis of the deposited data

Results flagged for a closer look

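The fall from GV to MII differed between genotypes for 52 of the 76 genes by the limma interaction term, and each of the 52 fell less in Zar1/2-null oocytes (33.9% of all tested genes did so). The differences in log2 change were 6.36 for Mrpl33, 4.91 for Mrps24, 3.53 for Mrpl28, 3.52 for Mrpl30 and 3.43 for Mrps12. Of the 52 calls, 31 remained under all 3 other scalings, and no such share of all genes is given. Without ERCC scaling 15.15% and with median scaling 14.49% of all tested genes fell less in null. Among the 31 are genes that were lower in null at GV and not called at MII, such as Mrpl15 and Mrpl41.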

How the results depend on the processing

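Calls before MII depended on the ERCC scaling. Without it, and with median scaling, counts of higher genes in null growing oocytes were 8 and 9 (14.9% and 15.8% of all genes). Those of lower genes were 4 and 4 (12.3% and 11.95% of all genes). At GV they were 9 and 15 higher (7.19% and 9.67% of all genes) and 4 and 4 lower (13.5% and 11.4%). At MII 12 and 11 genes were lower (23.4% and 23.65% of all genes). During WT growth 3 and 2 genes rose (3.66% and 3.24% of all genes) and 1 and 1 fell (3.23% and 3.425%). In WT maturation 2 and 7 rose (19.7% and 29.5% of all genes). For the GV to MII change 32 and 31 genes fell less in null (15.15% and 14.49% of all genes). The genes that fell more were 5 and 5 (6.46% and 8.83% of all genes). Past 10-fold lower were 29 and 19 genes in WT and 8 and 5 in null, past 3-fold lower at GV 0 and 0, and at MII 1 and 1 (also 1 with a floor of 0.1 FPKM). No share of all genes is given for these fold counts, so they cannot be set against all genes. The median log2 difference turned to 0.051 and 0.053 in growing oocytes, 0.10 and 0.18 at GV and 0.29 and 0.27 in WT growth. Mrpl3 turned to 0.45 and 0.78 and Mrpl44 to 0.23 and 0.56 in WT maturation. With median scaling alone, Mrps5 turned to 0.061 there, and at GV Mrpl10 turned to 0.0039, Mrpl11 to 0.041, Mrps12 to 0.0021 and Mrps18a to 0.44. A mean of at least 5 FPKM left 2 higher genes in growing oocytes, and a pseudocount of 0.1 gave 1 higher at GV. Lower genes at GV numbered 16 with no filter and 10 with the libraries of that stage alone. Over all tested genes these numbers were, in this order, 313 of 5966, 272 of 11502, 4209 of 23230 and 2949 of 11502. The causes were not tested.

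Leaving out 1 library gave 1 to 4 higher and 4 to 14 lower genes in growing oocytes, 0 to 1 and 11 to 26 at GV, 34 to 40 and 2 to 6 at MII, 2 to 9 falls in WT growth, 75 to 76 in WT maturation, and 37 to 51 smaller and 0 to 1 larger falls in null. Past 3-fold it gave 0 to 1 higher in growing oocytes, 0 to 2 lower at GV and 24 to 26 higher at MII, and past 10-fold lower 49 to 51 in WT and 21 to 26 in null. A larger fall (1 gene) appeared without either null GV library, and 1 higher gene at GV without the second WT GV or either null GV library. No gene was past 3-fold higher in growing oocytes without the second WT or first null library. Past 3-fold lower at GV were 0 without the first WT and 2 without the second null library. A lone library was assumed to vary like the other groups. Counts over all tested genes also changed when a library was left out. Their shares are not given, since 1 group then held 1 library, so the member counts cannot be set against all genes. Between null and WT, the median log2 difference over all tested genes lay between -0.18 and -0.14 in growing oocytes. It lay between -0.45 and -0.30 at GV and between 0.038 and 0.092 at MII.

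By replicate number, deviations from the group means went together weakly or not at all (correlations between -0.12 and 0.16). The scaling may still differ between replicate numbers, since both WT growing libraries had a factor of 1. The replicate block gave 4 higher and 14 lower genes for growing oocytes, 0 and 29 at GV and 40 and 5 at MII, and 1 gene fell more in null. Over the 11502 tested genes it gave 1296 and 2989, 344 and 4924, and 2574 and 1266, and 86 fell more. For single named genes, 2880 recomputed values kept their side of the threshold, 169 lost and 29 gained a call. Another 9 changed sign, each with a call before or after. Values without a call in either setting counted as kept, whatever their sign. With 2 libraries a group and no read counts, values under 1 FPKM cannot be ranked.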
